A study of Mus musculus with 90 samples.

Results

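The mitochondrial ribosome genes were described across the choroid plexus, the hippocampus and the cortex of stressed and control mice. The gene group was chosen with earlier results of these data known. Its members were taken by name: every measured gene whose name starts with Mrpl or Mrps and goes on with a number. This gave 78 of 19962 genes, 49 of the large subunit (Mrpl) and 29 of the small subunit (Mrps). The mitochondrial ribosome is the machine inside mitochondria that translates the few proteins encoded in mitochondrial DNA, most of which are parts of the respiratory chain. All of its proteins are encoded in the nucleus, made in the cytosol and imported. Some descend from bacterial ribosomal proteins and others exist only in mitochondria, and the small subunit reads the messenger RNA while the large subunit joins the amino acids.

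Brain sections were profiled with the GeoMx Digital Spatial Profiler, which counts, by sequencing, the tags that ultraviolet light frees from RNA-bound probes within a drawn area of interest (AOI). Of 10 mice, 6 had undergone chronic social stress (CSS) and 4 were controls (ctrl). Each of the 90 AOIs lay in the choroid plexus (CP), hippocampal field CA1 or CA3, the motor cortex (MC) or the somatosensory cortex (SS), and 46 were labelled p16 high and 44 p16 low. Strain, age and sex, and the way p16 status was assigned, are not stated in the sources used here. Each combination of stress, subregion and p16 label held 3 to 6 AOIs, and CSS mouse 1169 had none in CP.

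The signal had been scaled by the authors so that every AOI has the same gene median, 22.067. An AOI held 184469 to 2098984 counts, and its gene median was 1.22 to 1.97 times its negative control probe when averaged within a mouse and subregion. AOIs of CP, CA1 and CA3 all lay above every other AOI in the mean of the CP epithelial, CA1 and CA3 marker lists, of 7, 3 and 4 genes. Cdkn2a, which encodes p16, did not separate AOIs labelled p16 high from those labelled p16 low (log2 difference -0.04, SE 0.11, adjusted p = 0.92 in limma). An AOI is a mixture of cells, so a lower level can stand for fewer cells of a type or for less RNA per cell, and the 2 cannot be told apart.

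The mitochondrial ribosome genes were mostly measured above background. Of the 78 members, 57 were above the negative probe in every AOI. Of all their values, 1.24% were at or below that probe, against 22.7% over all genes. Different genes are read by different probes, so the levels below are set against each other within a gene.

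Most members of both subunits were lowest in the cortex and highest in CA1. By mean over mice, 28 of 49 large subunit genes were highest in CA1, 15 in CP and 6 in CA3, and the count was 18, 7 and 4 of the 29 small subunit genes. Not one member was highest in MC or SS. In log2(signal + 1), the median over large subunit members averaged 5.55 ± 0.14 in CP (SD, n = 9 mice), 5.67 ± 0.16 in CA1, 5.56 ± 0.19 in CA3, 5.10 ± 0.16 in MC and 5.12 ± 0.11 in SS (n = 10 each). For the small subunit it averaged 5.43 ± 0.15 in CP, 5.62 ± 0.17 in CA1, 5.46 ± 0.20 in CA3, 5.10 ± 0.14 in MC and 5.09 ± 0.080 in SS. The mice of CP, CA1 and CA3 overlapped in these medians, and MC and SS differed by less than their spread. Large subunit medians of CP and CA1 lay above those of every cortex mouse. Those of CA3 reached down to 5.18, below the highest mouse of MC (5.28) and of SS (5.24). Small subunit medians of CP, CA1 and CA3 reached down to 5.17, 5.31 and 5.135, below the highest mouse of MC (5.33).

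**Figure D1:**
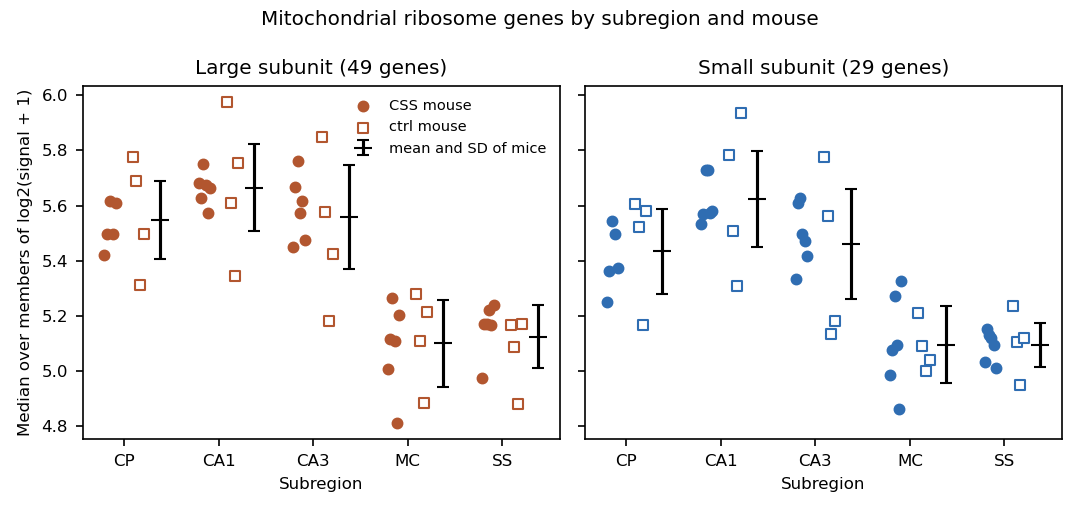
The median over the members of each subunit, in log2(signal + 1), for each mouse and subregion, with the mean and SD of all mice in black. Means lay from 5.43 to 5.67 in CP, CA1 and CA3, against 5.09 to 5.12 in MC and SS, and CSS (filled) and ctrl (open) mice overlapped in each subregion.

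Promoter sequences are shown for 4 members at the ends of the regional differences: Mrps6 and Mrpl3, highest and lowest in CP, and Mrps33 and Mrpl52, high in CA1. They are the 250 bases before the gene's start from RefSeq, build GRCm38.p6, read 5′ to 3′ on the gene's own strand. The regions are chr16:92058086-92058335, plus strand for Mrps6, chr9:105053018-105053267, plus strand for Mrpl3, chr6:39810937-39811186, minus strand for Mrps33 and chr14:54426659-54426908, plus strand for Mrpl52. Capitals mark exact matches, on either strand, to the motifs CCGGAAG (ETS factors such as GABPA), AAGATGG (YY1), GGGCGG (SP1), and to the NRF1 motif with any middle base, which includes its palindrome. No motif overlapped another in these windows except that SP1 matches overlapped each other in Mrps6.
Mrps6: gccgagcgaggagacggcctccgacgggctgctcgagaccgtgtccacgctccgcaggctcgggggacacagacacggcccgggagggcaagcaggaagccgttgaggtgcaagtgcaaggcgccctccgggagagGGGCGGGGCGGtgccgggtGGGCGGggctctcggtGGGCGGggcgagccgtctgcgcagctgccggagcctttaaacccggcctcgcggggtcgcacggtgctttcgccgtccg
Mrpl3: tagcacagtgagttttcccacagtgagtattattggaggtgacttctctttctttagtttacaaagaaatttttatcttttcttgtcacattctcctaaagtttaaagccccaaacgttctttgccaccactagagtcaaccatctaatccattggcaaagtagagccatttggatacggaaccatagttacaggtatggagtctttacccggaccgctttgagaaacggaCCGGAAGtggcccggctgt
Mrps33: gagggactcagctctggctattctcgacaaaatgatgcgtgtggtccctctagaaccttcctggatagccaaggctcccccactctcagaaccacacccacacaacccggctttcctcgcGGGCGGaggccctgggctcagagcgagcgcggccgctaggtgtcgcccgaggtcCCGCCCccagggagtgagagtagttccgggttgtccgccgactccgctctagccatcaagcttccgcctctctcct
Mrpl52: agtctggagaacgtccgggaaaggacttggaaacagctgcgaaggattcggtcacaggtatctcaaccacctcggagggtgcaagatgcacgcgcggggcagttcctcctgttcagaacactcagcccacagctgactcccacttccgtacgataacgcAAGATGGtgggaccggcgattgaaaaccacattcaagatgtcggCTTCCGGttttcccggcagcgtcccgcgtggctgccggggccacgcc
The Mrps6 window held the SP1 letters in separate stretches, with overlapping matches in the first of them, and neither the ETS nor the NRF1 letters. Its last 14 bases lie within another gene, Slc5a3, described below, so the window is not that of Mrps6 alone. Mrpl3 held the ETS letters close to its start, Mrps33 the SP1 letters on each strand, and Mrpl52 the YY1 and the ETS letters.

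Over the 69 members with an entry (75 windows), the ETS letters stood in 24.0% of windows, against 6.91% of all 32851 windows. The NRF1 letters stood in 13.3% against 3.74%, those of YY1 in 8% against 4.49% and those of SP1 in 49.3% against 32.7%. The 10 members with the NRF1 letters were 9 of the large subunit and 1 of the small, Mrps21. A match is a description of letters in this window and not of binding.

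Members of both subunits were higher in CA1 than in the cortex, taken as the mean of MC and SS in the same mouse. All 78 log2 differences were above 0. With limma over all genes and a call at a Benjamini-Hochberg adjusted p under 0.05, 43 of 49 large and 25 of 29 small subunit genes were called higher and 0 lower. Over all 19962 genes, 33.9% were called higher and 14.4% lower, 48.3% in either direction. The median log2 difference was 0.52 over the large and 0.54 over the small subunit, against -0.04 over all genes. It lay between 0.34 and 0.77 (large) and between 0.39 and 0.71 (small) in the 10 single mice.

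That margin was much narrower against genes of like signal. Among the 9981 genes above the median signal, 67.1% were called higher in CA1 and 9.23% lower, and their median log2 difference was 0.44, so the large subunit median stood 0.083 and the small subunit median 0.097 above it. In that set 44 of 47 large and 26 of 29 small subunit genes were called higher. Across the 78 members, those with more signal had larger CA1 differences (Pearson's r = 0.71, a description over genes measured in the same AOIs). The ratio of the gene median to the negative probe was higher in CA1 in 10 of 10 mice, by 0.30 ± 0.082 on the log2 scale (exact 2-sided sign-flip p = 0.00195, the smallest that 10 mice allow). Its part in the gene differences was not tested.

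Mrps21, the counterpart of a bacterial small subunit protein, showed the largest difference. Its signal ran from 79.4 over a median of 104 to 142 in CA1, against 36.9, 49.4 and 58.9 in cortex, and the mice did not overlap. The log2 difference was 1.11 (SE 0.074, adjusted p = 4e-14). Mrps33, a mitochondria-specific small subunit protein, ran from 61.1 over 82.8 to 108 in CA1, against 32.0, 42.0 and 49.1 in cortex. Its lowest CA1 value was above its highest cortex value, and the difference was 1.03 (SE 0.075, adjusted p = 2.98e-13). Mrps12, whose bacterial counterpart helps to keep decoding accurate, was higher by 0.93 (SE 0.081) and Mrps34, a mitochondria-specific protein, by 0.86 (SE 0.083).

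In the large subunit the largest differences were those of Mrpl52 (1.02, SE 0.088), Mrpl57 (0.96, SE 0.074), Mrpl38 (0.95, SE 0.078) and Mrpl23 (0.87, SE 0.093). The first 3 are mitochondria-specific, and the bacterial counterpart of Mrpl23 lies at the exit of the tunnel through which the new protein leaves. Mrpl52 signal ran from 59.5 over 73.7 to 115 in CA1, against 29.9, 37.8 and 47.8 in cortex, without overlap. The smallest called differences were those of Mrpl17 (0.26, SE 0.10), Mrpl36 (0.32, SE 0.10), Mrpl55 (0.32, SE 0.10) and Mrpl19 (0.34, SE 0.12), and in the small subunit those of Mrps25 (0.31, SE 0.093), Mrps31 (0.355, SE 0.10), Mrps28 (0.37, SE 0.11) and Mrps36 (0.375, SE 0.11). Mrps36 carries a ribosomal name but is now known as Kgd4, a component of the oxoglutarate dehydrogenase complex. The mice did not overlap for 12 large and 8 small subunit genes and for 12% of all genes. The Mrpl17 call passed in 7 of 16 fits that varied the processing or left out a mouse.

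CA3 gave a similar picture with fewer calls, set against the same cortex AOIs. Here 38 of 49 large and 23 of 29 small subunit genes were called higher and 0 lower, where 27.5% of all genes were called higher and 6.23% lower, 33.8% in either direction. All 78 differences were above 0, with medians of 0.49 (large) and 0.42 (small) against 0.00 over all genes. Among genes above the median signal, 56.4% were called higher and 6.64% lower, with a median of 0.29, and 38 of 47 large and 26 of 29 small subunit genes were called. The ratio of the gene median to the negative probe was also higher in CA3 in 10 of 10 mice, by 0.19 ± 0.087 (exact 2-sided sign-flip p = 0.00195).

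Mrps33 led in CA3, with a signal from 57.7 over 90 to 115, against 32.0, 42.0 and 49.1 in cortex, and a log2 difference of 1.06 (SE 0.087, adjusted p = 3.84e-11). Mrps26 was higher by 0.80 (SE 0.097), Mrps21 by 0.74 (SE 0.084) and Mrps34 by 0.71 (SE 0.092). In the large subunit, Mrpl28 was higher by 0.91 (SE 0.10), Mrpl38 by 0.80 (SE 0.091), Mrpl12 by 0.79 (SE 0.092) and Mrpl52 by 0.72 (SE 0.087). Mrpl12 forms the flexible stalk to which translation factors bind. The smallest called values, from 0.25 to 0.32, were those of Mrps36, Mrps5, Mrps25 and Mrps24 in the small subunit and of Mrpl16, Mrpl37, Mrpl40 and Mrpl35 in the large subunit. Of these, Mrps36 passed in 6 and Mrpl16 in 8 of 16 fits. Of the members called higher, 59 were called in both hippocampal fields, 9 in CA1 and 2 in CA3 without a call in the other field.

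Just 8 members were called in neither field: Mrpl1, Mrpl14, Mrpl34, Mrpl45, Mrpl47, Mrps6, Mrps27 and Mrps35. Their log2 differences ran from 0.056 to 0.28 in CA1 and from 0.026 to 0.25 in CA3. Most of them lay near background. On average over AOIs, their signal was 1.36 (Mrpl45) to 2.31 (Mrps35) times the negative probe, apart from Mrps6 at 3.71. Some called members lay in that range too, such as Mrpl19 at 1.77, called in CA1. The part of the signal level in the missing calls was not tested. Mrps27 is an RNA-binding protein of the small subunit, and Mrps6, the counterpart of a bacterial small subunit protein, is the member that stood out in CP.

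**Figure D2:**
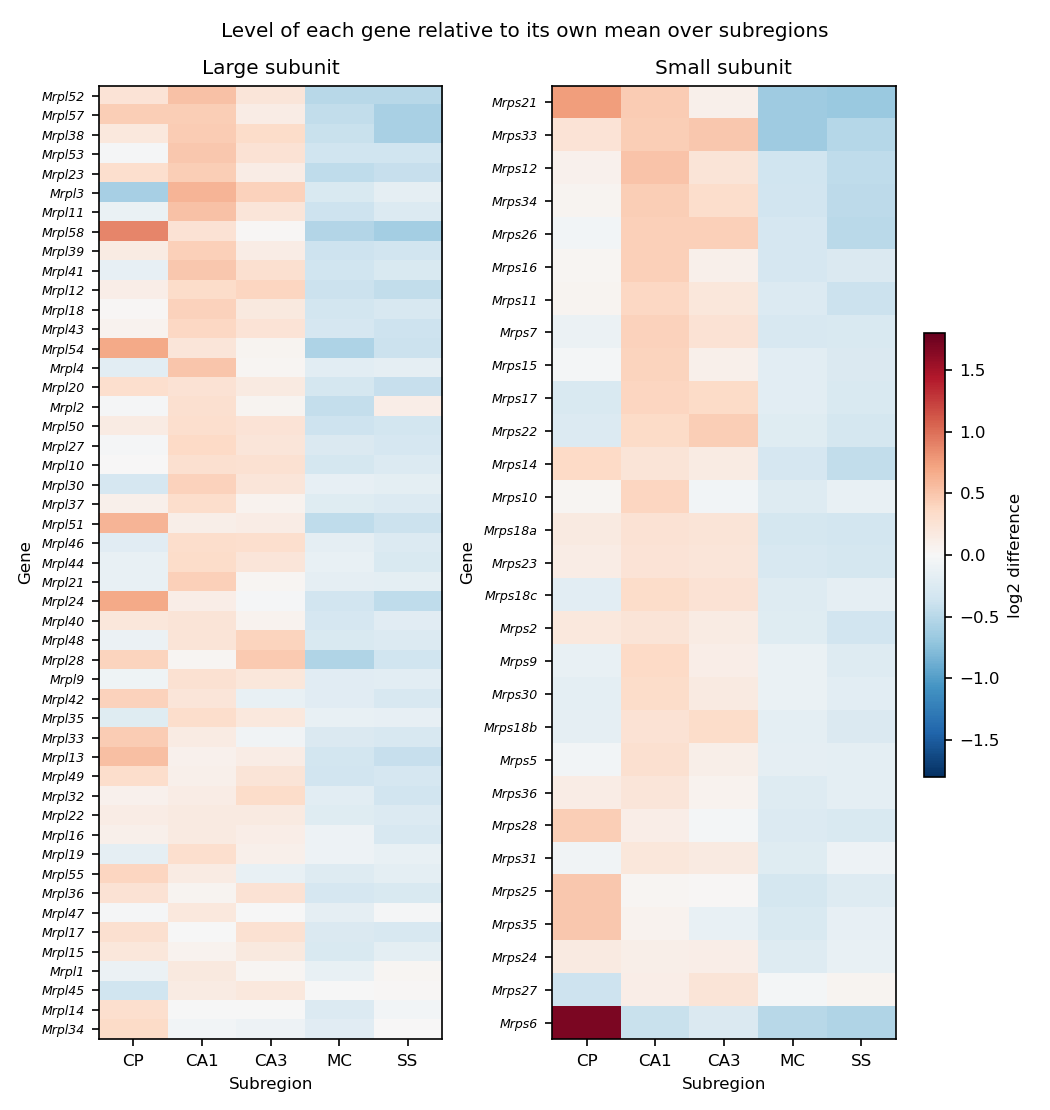
Level of each member in each subregion as log2(mean signal + 1) minus its own mean over the 5 subregions, with genes ordered by their CA1 difference from cortex. MC and SS were low for nearly all members, CA1 and CA3 high, and CP mixed, with Mrps6 far above the rest in CP.

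The choice of scaling set much of the size of the hippocampal differences. When AOIs were scaled to a common 75th percentile, the median of all genes moved to -0.45 in CA1 against cortex and -0.27 in CA3 against cortex. The subunit medians lay 0.55 and 0.56 (CA1) and 0.48 and 0.41 (CA3) above that median gene, for the large and the small subunit in that order. This scaling divides all genes of an AOI by the same number, so it can hardly change that distance. Quantile normalization can change it, and the distance was then 0.087 and 0.17 (CA1) and 0.175 and 0.149 (CA3). With 75th percentile scaling, calls in CA1 were 19 higher and 3 lower (large) and 12 higher and 2 lower (small). In CA3 they were 26 higher and 1 lower (large) and 13 higher and 0 lower (small). With quantile normalization, 12 large and 7 small subunit genes were called higher in CA1 and 15 and 6 in CA3, with 0 lower. Of all genes, 15.8% (CA1) and 11.8% (CA3) were then called higher and 13.6% and 9.54% lower, while the 75th percentile scaling called 18% and 16.9% higher and 61.3% and 45.6% lower.

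Marker levels differed between the same subregions. The summed signal of 6 excitatory neuron markers ran from 5880 to 12200 in CA1 and from 3940 to 9610 in CA3, against 2010 to 4240 in MC and 1990 to 3780 in SS. For 6 general neuron markers it was 2070 to 3880 in CA1 and 3220 to 7970 in CA3, against 1520 to 3840 in MC and 1620 to 3110 in SS, so CA1 and cortex overlapped. For 7 inhibitory neuron markers it was 265 to 657 in CA1 and 243 to 679 in CA3, against 383 to 860 in MC and 434 to 853 in SS. The sum of 6 oligodendrocyte markers ran from 261 to 474 in CA1 and from 430 to 777 in CA3, against 595 to 986 in MC and 528 to 1310 in SS. In these lists 0 of the markers were at 0. Their part in the differences was not tested.

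CA3 and CA1 differed less from each other, and in a direction that depended on the scaling. With the authors' scaling, 7 large and 4 small subunit genes were called lower in CA3 than in CA1 and 1, Mrpl28, higher, whereas with quantile normalization 1 was called lower and 9 higher. Over all genes 12.7% were called lower and 5.04% higher, 17.7% in either direction, and 8.18% and 7.83% with quantile normalization. The medians were -0.15 (large) and -0.12 (small), against 0.00 over all genes. The lowest log2 differences were those of Mrpl4 (-0.49, SE 0.12, adjusted p = 0.0033) and Mrps10 (-0.43, SE 0.11, adjusted p = 0.00493), then Mrpl42 (-0.38), Mrps21 (-0.37), Mrps16 (-0.36), Mrpl23 (-0.32), Mrpl57 (-0.32), Mrpl11 (-0.315), Mrpl39 (-0.31), Mrps12 (-0.30) and Mrpl52 (-0.30). Of 16 fits, Mrpl39 passed in 6, Mrpl11 in 7 and Mrps12 and Mrpl52 in 8.

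Mrpl28 kept its call with either scaling. Its signal ran from 44.5 over 87.9 to 111 in CA3, against 45.8, 51.1 and 80.9 in CA1, and it was higher in CA3 in 7 of 10 mice (log2 difference 0.42, SE 0.10, adjusted p = 0.00377, and 2.33e-06 to 0.041 over 16 fits). Without ctrl mouse 1182 the number of members called in this comparison was 7, against 12 with all mice. The ratio of the gene median to the negative probe was lower in CA3 in 9 of 10 mice, with a mean log2 difference of -0.12 ± 0.080 (exact 2-sided sign-flip p = 0.00391). MC and SS gave 0 calls with limma for members and 0% of all genes, with 1 member (1.28%) at an unadjusted p under 0.05, against 5.51% of all genes.

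**Figure D3:**
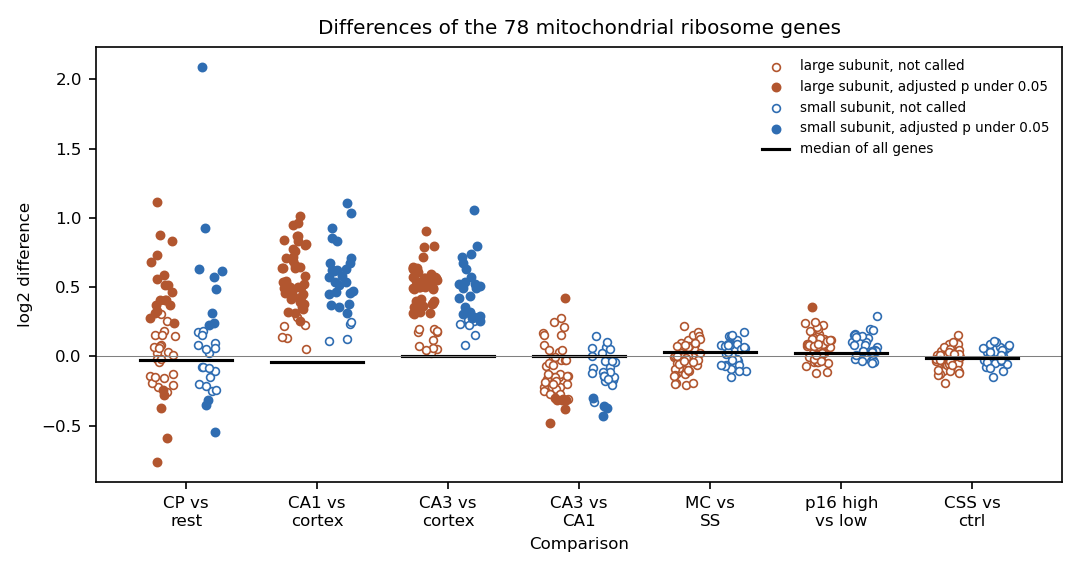
The log2 difference of each member in 7 comparisons, the first-named group minus the second, with filled points for an adjusted p under 0.05 and a black bar for the median of all genes. Members stood above the all-gene median in CA1 and CA3 against cortex, spread in both directions in CP, and lay close to 0 for MC against SS and for CSS against ctrl mice.

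In the choroid plexus the members split. CP is the tissue that makes cerebrospinal fluid, and its epithelium is rich in mitochondria. It was set against the mean of CA1, CA3, MC and SS in each of 9 mice. Of the large subunit, 19 genes were called higher and 5 lower, and of the small subunit 9 higher and 3 lower, where 20.6% of all genes were called higher and 19.6% lower, 40.2% in either direction. The medians were 0.145 (large) and 0.057 (small), against -0.029 over all genes. The CP AOIs held a summed CP epithelial marker signal of 57900 to 112000, against at most 618 in the other subregions, and a neuronal marker sum of 132 to 173, against 1520 to 7970 elsewhere. The ratio of the gene median to the negative probe was higher in CP in 9 of 9 mice, by 0.154 ± 0.053 on the log2 scale (exact 2-sided sign-flip p = 0.00391). The part of these values in the gene differences was not tested.

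Mrps6 stood far above the other members. Its signal ran from 88.1 over a median of 145 to 177 in CP, against 27.9, 34.1 and 35.6 in the other subregions. All 9 CP values lay above every other value, and the log2 difference was 2.09 (SE 0.085, adjusted p = 6.38e-14, 4.26-fold). Outside CP its mean was 32.6 ± 7.59 in CA1, 36.1 ± 7.10 in CA3, 30.3 ± 4.54 in MC and 29.3 ± 3.68 in SS (SD, n = 10 mice), which overlap.

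Mrps6 shares its genomic place with Slc5a3, the sodium/myo-inositol cotransporter gene, which was singled out after its values were seen. On the GRCm38.p6 (mm10) build Mrps6 lies on chromosome 16 from 92058336 to 92112227 and Slc5a3 from 92058322 to 92087473, so the starts are 14 bases apart and 29138 bases are shared. Slc5a3 signal ran from 90.2 over 124 to 148 in CP, against 24.5, 32.0 and 33.7 in the other subregions, with a log2 difference of 2.0 (SE 0.067, adjusted p = 3.6e-15). The 2 genes thus had nearly the same difference. Over the 16 CP AOIs their log2 signals had a Pearson's r of 0.78, over the 74 other AOIs 0.28, given as descriptions of AOIs that share mice. Probe sequences were not used here, and whether the Mrps6 probe also read transcripts of Slc5a3 was not tested. In all, 20 members overlap another gene on this build, by 14 to 29138 bases.

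The next highest in CP was Mrpl58, a peptidyl-tRNA hydrolase built into the large subunit that releases stalled chains. Its signal ran from 71.0 over 99.3 to 136 in CP, against 33.0, 48.6 and 60.6 elsewhere, without overlap (log2 difference 1.12, SE 0.077, adjusted p = 1.98e-10). Mrps21 ran from 89.9 over 126 to 165 in CP, against 53.6, 70.1 and 91.6 elsewhere (0.92, SE 0.064), and was higher in CP in 9 of 9 mice although the ranges overlapped. Mrpl24 (0.88, SE 0.072), Mrpl54 (0.83, SE 0.080) and Mrpl51 (0.735, SE 0.076) followed in the large subunit. Mrps35 (0.63, SE 0.098), Mrps25 (0.61, SE 0.074) and Mrps2 (0.23, SE 0.074) were called higher in the small subunit. The mice did not overlap for 4 large and 2 small subunit genes, 6 of 78 members, and for 18.2% of all genes.

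Mrpl3, whose bacterial counterpart reaches toward the site where amino acids are joined, fell most in CP. Its signal ran from 20.2 over 22.1 to 34.4 in CP, against 34.8, 46.8 and 57.2 elsewhere, without overlap (log2 difference -0.76, SE 0.11, adjusted p = 7.96e-06). The other large subunit genes called lower were Mrpl45 (-0.59, SE 0.17), Mrpl30 (-0.37, SE 0.093), Mrpl46 (-0.28, SE 0.11, adjusted p = 0.0487) and, outside the rule for named genes, Mrpl4 (-0.25, SE 0.089). The Mrpl46 call passed in 6 of 15 fits, with an adjusted p of up to 0.12. In the small subunit Mrps27 (-0.54, SE 0.13), Mrps17 (-0.35, SE 0.089) and Mrps22 (-0.32, SE 0.084) were called lower. Mrpl45, which holds the ribosome to the inner membrane, ranged from 4.90 to 22.1 in CP, which reaches down into the range of the negative probe, 10.8 to 18.1.

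**Figure D4:**
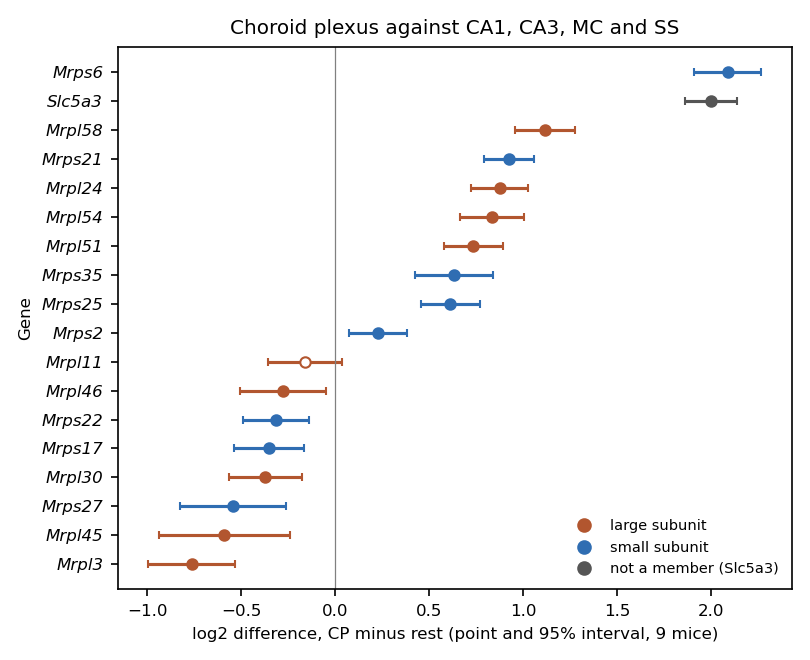
The log2 difference of the named members, and of Slc5a3, between CP and the mean of the other 4 subregions, with 95% intervals over 9 mice; the open point, Mrpl11, did not pass. Mrps6 and Slc5a3 lay together at 2.09 and 2.0, Mrpl58 followed at 1.12, and Mrpl3 was lowest at -0.76.

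Members were also split by the number in their names. Low numbers, and Mrps24, were taken to have a bacterial counterpart, and high numbers to be mitochondria-specific. This split was not checked by sequence, so single genes may stand in the wrong class. Members of both classes were called in both subunits. In CA1 against cortex, 24 of 28 large subunit genes of the first class and 19 of 21 of the second were called higher. In the small subunit it was 15 of 17 and 10 of 12, and over all genes 33.9%. Among genes above the median signal, fitted alone, it was 67.1%. In CP, 10 of 28 and 9 of 21 large subunit genes and 5 of 17 and 4 of 12 small subunit genes were called higher, against 20.6% of all genes. These counts are descriptions, and the differences between them were not tested. Mrps30 and Mrps18a, which sit in the large subunit despite their names, had CA1 differences of 0.47 (SE 0.095) and 0.57 (SE 0.11).

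The other genes of mitochondrial translation were taken from 5 lists holding 78 genes: ribosomal proteins of other names, aminoacyl-tRNA synthetases, which load tRNAs with amino acids, translation factors, assembly and rRNA modification factors, and factors that copy and transcribe mitochondrial DNA. In CA1 against cortex, 45 of 78 were called higher and 1 lower, with a median of 0.31, where 33.9% of all genes were called higher and 14.4% lower. Among genes above the median signal, fitted alone, 67.1% were called higher. In CA3 against cortex 25 were called higher and 3 lower, with a median of 0.17. That is near the shares of all genes in CA3, 27.5% higher and 6.23% lower. Dap3, a GTP-binding small subunit protein, was higher by 0.90 (SE 0.071) in CA1 and 0.85 (SE 0.083) in CA3. Gfm1, the elongation factor that moves the ribosome along, was higher by 0.76 (SE 0.085) and 0.57 (SE 0.091), and Tfam, which packs and transcribes mitochondrial DNA, by 0.56 (SE 0.11) in CA1. In CP, 12 of the 78 were called higher (15.4%) and 10 lower (12.8%), against 20.6% and 19.6% of all genes. Fars2, the phenylalanyl-tRNA synthetase of mitochondria, was highest there at 1.60 (SE 0.092), while Dap3 fell by 0.44 on the log2 scale (SE 0.068).

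The cytosolic ribosome and the nuclear-encoded respiratory chain were set beside them as 2 related gene groups. In CP, 71 of 81 cytosolic ribosome genes rose and 0 fell (median 0.56), with 77 and 0 in CA1 against cortex (0.61) and 73 and 1 in CA3 against cortex (0.46). Of 82 nuclear genes of oxidative phosphorylation, 68 rose and 5 fell in CP (median 0.65), 76 and 2 in CA1 (0.75) and 76 and 1 in CA3 (0.73). These are calls with the authors' scaling. The shares of all genes called higher were 20.6% in CP, 33.9% in CA1 and 27.5% in CA3, and those called lower 19.6%, 14.4% and 6.23%. Among genes above the median signal, fitted alone, 67.1% were called higher in CA1 and 56.4% in CA3. The respiratory chain gene Ndufa1 was higher in CP by 2.05 (SE 0.051) and the ATP synthase gene Atp5g1 by 1.56 (SE 0.049). The medians of the mitochondrial ribosome genes in CP, 0.145 or less, were thus the lower ones of the 3 groups, while in CA1 the medians lay between 0.52 and 0.75 in all of them. The difference between the groups was not tested.

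A single member differed with the p16 label. In hippocampus and cortex together, comparing AOIs labelled p16 high with those labelled p16 low within each mouse, Mrpl11 was called and the other 77 members were not. Over all genes 0.386% were called higher and 0% lower. Earlier results of these data had already named Mrpl11, so the call does not stand as independent support for it. The counterpart of Mrpl11 in bacteria lies at the base of the stalk where translation factors bind. Its signal ran from 39.9 over 60.4 to 82.9 in p16 high AOIs, against 33.8, 46.6 and 57.1 in p16 low AOIs. The groups overlapped, but Mrpl11 was higher in p16 high AOIs in 10 of 10 mice, with a log2 difference of 0.36 (SE 0.072, adjusted p = 0.0303).

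The call depended on the setting. It was lost with quantile normalization (adjusted p = 0.395), 75th percentile scaling (0.249), the ratio of signal to background as a covariate (0.166) and the mouse as a random block (0.0867), with log2 differences of 0.28 to 0.33. Without a block for the mouse it was 0.886. It was also lost without CSS mouse 1157, 1162, 1169 or 1170 or ctrl mouse 1151 or 1175, where the adjusted p lay between 0.0717 and 0.132. The ratio of the gene median to the negative probe was higher in p16 high AOIs in 9 of 10 mice, by 0.047 ± 0.042 on the log2 scale (exact 2-sided sign-flip p = 0.0117).

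By subregion, Mrpl11 differed by 0.36 in CA1 (SE 0.12, 8 of 8 mice above 0, adjusted p = 0.161), 0.46 in CA3 (SE 0.13, 8 of 8, adjusted p = 0.184), 0.12 in MC (SE 0.11, 5 of 9, adjusted p = 0.928), 0.42 in SS (SE 0.12, 9 of 9, adjusted p = 0.945) and -0.20 in CP (SE 0.12, 1 of 7, adjusted p = 0.889). None passed. The p16 difference of Mrpl11 in hippocampus against that in cortex differed by 0.14 (SE 0.12, adjusted p = 0.76), and the p16 difference in CSS against ctrl mice by 0.078 (SE 0.15, adjusted p = 0.998).

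**Figure D5:**
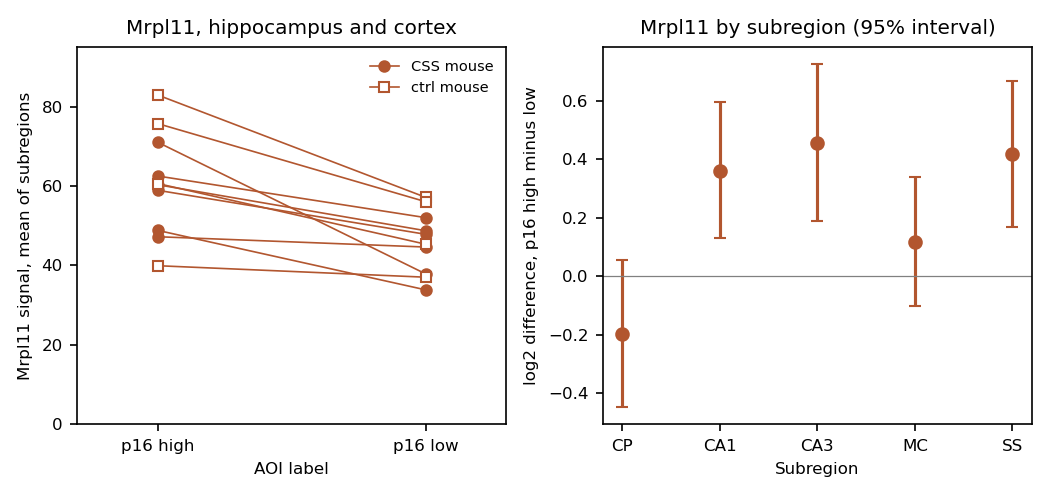
Left, Mrpl11 signal in hippocampal and cortical AOIs labelled p16 high or p16 low, a line per mouse; right, its log2 difference in each subregion with 95% intervals over 7 to 9 mice. All 10 lines run lower in p16 low AOIs, and the subregion differences lay between -0.20 in CP and 0.46 in CA3.

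Over the members together, the p16 medians in hippocampus and cortex were 0.083 (large) and 0.044 (small), against 0.026 over all genes, and with quantile normalization the large subunit median was -0.005. In the fit to the authors' scaling, 6 members of each subunit had an unadjusted p under 0.05, 15.4% of members against 14.2% of all genes. Among genes above the median signal Mrpl11 and Mrpl58 were called, where 2.68% of genes were higher and 0.01% lower. With limma, 0 members were called in CA1, CA3, MC, SS or CP taken singly, where the share of all genes called was 0.0902% in CA1 and 0% in the others. The share of members at an unadjusted p under 0.05 was 12.8% in CA1 (10 members), 23.1% in CA3 (18), 2.56% in MC (2), 5.13% in SS (4) and 5.13% in CP (4). Over all genes it was 11.8% in CA1, 13.3% in CA3, 4.99% in MC, 4.50% in SS and 5.24% in CP. The medians were 0.16 (large) and 0.082 (small) in CA1 and 0.14 and 0.23 in CA3, but -0.069 and -0.095 in CP. The members farthest out in CA1 were Mrpl13 at 0.495 (SE 0.15, adjusted p = 0.134) and Mrpl19 at -0.355 (SE 0.21, adjusted p = 0.523). In CP they were Mrpl9 at 0.22 (SE 0.13) and Mrps12 at -0.35 (SE 0.11), both at an adjusted p of 0.889. The summed excitatory neuron markers ran from 3770 to 8440 in p16 high and from 3150 to 6470 in p16 low AOIs.

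Chronic social stress called 0 members with limma, in all subregions together and in each of them, and 0% of all genes. With all subregions together, an unadjusted p under 0.05 was found for 0 members and for 1.78% of the 19962 genes. The medians were -0.012 (large) and 0.011 (small), against -0.009 over all genes. Every member lay between -0.19 (Mrpl45) and 0.15 (Mrpl10). Mrpl10 ran from 38.1 over 41.3 to 46.8 in CSS mice, against 31.0, 38.6 and 43.6 in ctrl mice, a difference of 0.15 (95% interval -0.074 to 0.38). Mrpl11 ran from 45.8 over 53.1 to 56.9 in CSS mice, against 38.5, 54.5 and 67.7 in ctrl mice (-0.043, 95% interval -0.30 to 0.22). The groups overlapped for both.

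Within single subregions the unadjusted p was under 0.05 for 2 members in SS (2.56%, against 3.65% of all genes), 1 in CP (1.28%, against 3.22%) and 0 in CA1, CA3 and MC (against 2.90%, 2.88% and 2.76%). In CP, CSS and ctrl mice did not overlap for 2 of 78 members and for 0.917% of all genes. Mrpl45 signal was 4.90 to 15.2 in 5 CSS mice and 15.6 to 22.1 in 4 ctrl mice (log2 difference -0.76, SE 0.27, adjusted p = 0.999), values around the level of the negative probe. Mrpl16 signal was 29.9 to 40.5 in CSS mice and 24.8 to 29.7 in ctrl mice (0.36, SE 0.19, adjusted p = 0.999). In SS, Mrps28 signal was 22.3 to 29.9 in CSS mice and 11.8 to 22.5 in ctrl mice, with a difference of 0.52 (SE 0.18, adjusted p = 0.999). The stress difference in CP against the other subregions gave 0 calls with limma for members and 0% for all genes, as did the stress difference in hippocampus against cortex and the p16 difference by stress and by hippocampus against cortex. At an unadjusted p under 0.05 these held 1, 1, 3 and 5 members, in that order, against 3.12%, 5.02%, 3.32% and 8.76% of all genes.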

How the data were processed

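GeoMx whole transcriptome profiles of 90 AOIs from formalin-fixed, 5 µm mouse brain sections were used. The authors deposited a signal per gene and AOI, scaled to a common gene median, and the submitters' processing notes name the mm10 build. Members and gene lists were chosen with earlier results of these data known. AOIs of a mouse were averaged per subregion (or p16 label), so that the mouse is the replicate. log2(signal + 1) of 19962 genes was fitted with limma 3.58.1 (lmFit, eBayes with trend, R 4.3.3), with the mouse as a block within mice, and p-values were adjusted by Benjamini-Hochberg over all genes, with a call under 0.05. There were 21 comparisons. Pairing comes from the labels, which give the mouse. Of 41 pairs of a p16 high and a p16 low AOI of the same mouse and subregion, 13 correlated above 0.1 (median 0.071). The correlation was taken across genes, over deviations from the mean of the subregion and p16 label. Mrpl11 was always named, since earlier results of these data had named it. Otherwise, per comparison and subunit, all called members were named if 6 or fewer, or else the 4 highest and 4 lowest, and with no call the members of highest and lowest moderated t. Of other lists, up to 2 called genes of smallest p were named. Pseudocount, scaling, filter, block and left-out mice were varied. In every AOI at least 99.985% of values lay within 0.01 of a whole multiple of 1 step, which gave the counts used for depth. The smallest value is not 1 such step in every AOI, so the columns were kept as signal and the planned count test was not run.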

Additional observations from a re-analysis of the deposited data

Results flagged for a closer look

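Single mice stood apart from the others in 13 of 197 sets of mouse values tested, and chance gives about 1 in 20. In CP against the other subregions, mouse 1182 had a log2 difference of -0.90 for Mrpl11 (next mouse -0.24, other end 0.08). Mouse 1170 had 0.52 for Mrpl24 (next 0.81, other end 1.02). Mouse 1163 stood apart 3 times, at -1.09 for Mrpl46 (next -0.38), 0.64 for Mrpl58 (next 1.04) and -1.64 for Mrps27 (next -0.82). In CA3 against CA1, mouse 1182 had -1.52 for Mrpl4 (next -0.67) and -1.39 for Mrps16 (next -0.45).

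Mouse 1169 stood apart in CA1 against cortex at 1.53 for Mrps34 (next 1.02) and -0.64 for Mrps36 (next 0.23), in CA3 against cortex at 0.85 for Mrpl37 (next 0.39), and in MC against SS at -0.31 for the large subunit median (next -0.07). In SS, ctrl mouse 1175 had -0.52 for Mrpl11 (next 0.14, other end 0.23). In the p16 difference of hippocampus against cortex, mouse 1163 had -2.50 for Mrpl19 (next -0.97, other end 0.51).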

How the results depend on the processing

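Scaling moved the counts of members called in hippocampus against cortex. In CA1 against cortex 68 members were called, against 19 with quantile normalization and 36 with 75th percentile scaling. In CA3 against cortex 61 were called, against 21 and 40. In CA3 against CA1 12 were called, against 4 with no replicate block, and the large subunit median turned to 0.01 with 75th percentile scaling. The p16 call in hippocampus and cortex was 1 member, against 2 among genes above the median signal and 0 with quantile normalization, 75th percentile scaling, no replicate block, the background covariate or the random block. With no replicate block 3 large subunit genes, against 5, were called lower in CP, where Mrpl46 and Mrps2 lost their calls. Leaving out 1 mouse gave 31 to 36 calls in CP, 7 to 15 in CA3 against CA1, 65 to 72 in CA1 and 54 to 64 in CA3 against cortex, 0 to 2 for p16 in hippocampus and cortex, 0 to 1 for p16 in CA3 and 0 in the other comparisons. With mouse 1152 left out, the p16 call in CA3 was Mrpl11 (0.52, adjusted p = 0.0348).

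In CA1 against cortex these turned negative: with quantile normalization Mrpl17 (-0.07), Mrps25 (-0.20) and Mrps36 (-0.02), and with 75th percentile scaling Mrpl17 (-0.17), Mrpl19 (-0.08), Mrpl36 (-0.11), Mrpl55 (-0.10), Mrps25 (-0.12), Mrps28 (-0.05), Mrps31 (-0.07) and Mrps36 (-0.05). In CA3 against cortex, Mrpl37 (-0.02), Mrpl40 (-0.02), Mrps25 (-0.09), Mrps36 (-0.01) and Mrps5 (-0.02) did so with quantile normalization and Mrps36 (-0.02) with 75th percentile scaling. Mrpl11, never called for stress, changed sign without mice 1151 (0.08) and 1169 (0.01) over all subregions. It did so in CA3 without 1151 (0.13), 1152 (0.01) and 1182 (0.00) and in MC without 1175 (-0.09). In SS it did so with 75th percentile scaling (-0.01) and without 1157 (-0.01), 1162 (-0.04), 1163 (-0.05), 1170 (-0.09) and 1175 (-0.17). Its p16 difference by stress turned to -0.02 without 1170, that of hippocampus against cortex to -0.07 with quantile normalization, and its stress difference in CP against the rest to -0.02 without 1182. Over all left-out mice its stress difference reached -0.27 in CA3, 0.22 in MC, 0.10 in SS and 0.31 in CP against the rest, and its p16 difference by stress 0.14. The causes were not tested. Among the remaining settings of single members and medians, 1836 kept direction and call, 126 lost the call, 1 gained it and 40 medians or counts per subunit moved. Members near the negative probe, such as Mrpl45, are limited by background.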
